A study of Mus musculus with 2 samples.

Results

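Cytosolic ribosomal protein genes encode the proteins that, with ribosomal RNA, build the small and the large subunit of the ribosome. The gene symbols begin with Rps for the small subunit and Rpl for the large. They were taken from the deposited table by symbol: every row beginning Rpl or Rps and a digit, plus Rpsa, Rplp0, Rplp1 and Rplp2, without the Rps6k kinases and without rows holding "-ps". This gave 85 of 15247 genes. Of the 85, 77 are standard ribosomal protein genes (46 of the large subunit and 31 of the small). The other 8 are paralogs or genes whose symbol only resembles one: Rpl22l1, Rps27l, Rps27rt, Rpl36al, Rpl39l, Rpl3l, Rpl7l1 and Rps19bp1. The rule goes by symbol and uses no expression value, though it was set with earlier results of these data known.

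A ribosome is built from a fixed set of these proteins, most of them in a single copy, and a dividing or secreting cell spends much of its messenger RNA on them. Most of these messages begin with a C followed by a run of C and T letters in the DNA, called a terminal oligopyrimidine (TOP) tract, through which growth signals by way of the kinase mTOR control their translation. Free ribosomal proteins such as Rpl5 and Rpl11 can bind Mdm2, the negative regulator of p53, and so tie ribosome assembly to the p53 pathway. Genes of this family are expressed in every heart cell type.

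The cells came from hearts of old C57BL/6 mice (20 to 22 months) of the p16-FDR strain. In this strain an optimised FLP recombinase and a diphtheria toxin receptor joined to the red fluorescent protein mCherry report use of p16, the product of Cdkn2a. All cells were sorted for mCherry and profiled with 10x Genomics Chromium 3' chemistry, whose unit is the unique molecular identifier (UMI), a tag that is counted once per captured message. The labels describe 2 samples of a single group, with no untreated, unsorted or mCherry-negative samples among those analysed here, and no treatment other than the sort. The cell names carry the prefixes Heart1 and Heart2, called libraries here, and do not say which sample record or which animals each came from. Nothing in the labels says that the 2 libraries came from separate animals. A p-value here rests on how far a difference between cell classes varies between these libraries, joined with a spread pooled over genes. The variation between these libraries may be technical.

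Cells were divided by 8 fibroblast markers (Col1a1, Col1a2, Col3a1, Dcn, Lum, Pdgfra, Mmp2, Tcf21) and 8 macrophage markers (Lyz2, C1qa, C1qb, C1qc, Cd68, Csf1r, Fcgr1, Adgre1). A fibroblast-gated cell had a UMI of at least 4 of its own markers and of at most 2 of the other list, and a macrophage-gated cell the reverse. Of 1426 cells, Heart1 gave 205 fibroblast-gated, 37 macrophage-gated and 24 ungated cells, and Heart2 gave 939, 208 and 13. The libraries shared 0 cell barcodes. The 4 sums held between 347087 and 8378285 UMIs, median depth was 8133 to 11841 UMIs per cell, and mitochondrial genes took 3.43 to 5.57% of UMIs. The summed macrophage markers stood at 8.55 and 18 CPM (UMIs of a gene in 1000000 UMIs of the sum) in fibroblast-gated cells and at 47005 and 48781 CPM in macrophage-gated cells. The fibroblast markers stood at 27533 and 29289 CPM in fibroblast-gated cells and at 17.3 and 42.4 CPM in macrophage-gated cells. Cardiomyocyte markers (Myh6, Tnnt2, Actc1, Ttn and Myl2) summed to 46.5 and 17.1 CPM in fibroblast-gated and to 86.4 and 89.2 CPM in macrophage-gated cells, with 5 of 5 above 0 in each sum.

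Ribosomal protein genes took a larger share of UMIs in fibroblast-gated than in macrophage-gated cells of both libraries, and a larger share in Heart1 than in Heart2 in both classes. In fibroblast-gated cells the 85 genes made up 14.26% of UMIs in Heart1 (14.22 to 14.30%, exact Clopper-Pearson 95% interval) and 12.59% in Heart2 (12.57 to 12.61%). In macrophage-gated cells they made up 11.76% in Heart1 (11.66 to 11.87%) and 11.08% in Heart2 (11.04 to 11.12%). These intervals cover counting of UMIs only. The class gap was 2.50 percentage points in Heart1 and 1.51 in Heart2, and the library gap was 1.67 percentage points in fibroblast-gated and 0.682 in macrophage-gated cells. Over libraries the share was 13.4% ± 1.18 (SD, n = 2) in fibroblast-gated and 11.4% ± 0.483 (SD, n = 2) in macrophage-gated cells. The shares are given as a description, with no test. A share is a part of a whole, so a cell's share also falls where other messages take more of its UMIs.

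Single cells spread widely around these shares. Fibroblast-gated cells of Heart1 had a median share of 14.5%, with quartiles at 12.2 and 16.4% and a range of 2.94 to 26.7%. Fibroblast-gated cells of Heart2 had a median of 12.0%, quartiles at 9.17 and 14.6% and a range of 3.21 to 30.1%. Macrophage-gated cells had medians of 11.7% in Heart1 and 10.9% in Heart2, with ranges of 3.58 to 23.0% and 3.93 to 26.9%. The middle range of cells therefore overlapped between all 4 sets. Across fibroblast-gated cells of Heart2 the share went with depth (Spearman's rho 0.38 over 939 cells, as a description), while rho was -0.019 in those of Heart1, 0.020 in macrophage-gated cells of Heart1 and -0.12 for Heart2. With the mitochondrial share, rho lay between -0.19 and -0.042 in the 4 sets. Each cell's shares have the same denominator. Thinned to 3000 UMIs per cell, the shares were 14.2 and 12.2% in fibroblast-gated and 11.7 and 11.2% in macrophage-gated cells. Drawing UMIs at random leaves the expected share of a cell unchanged, so these values only repeat the means over cells closely. The part of depth in the library gap was not tested.

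**Figure D1:**
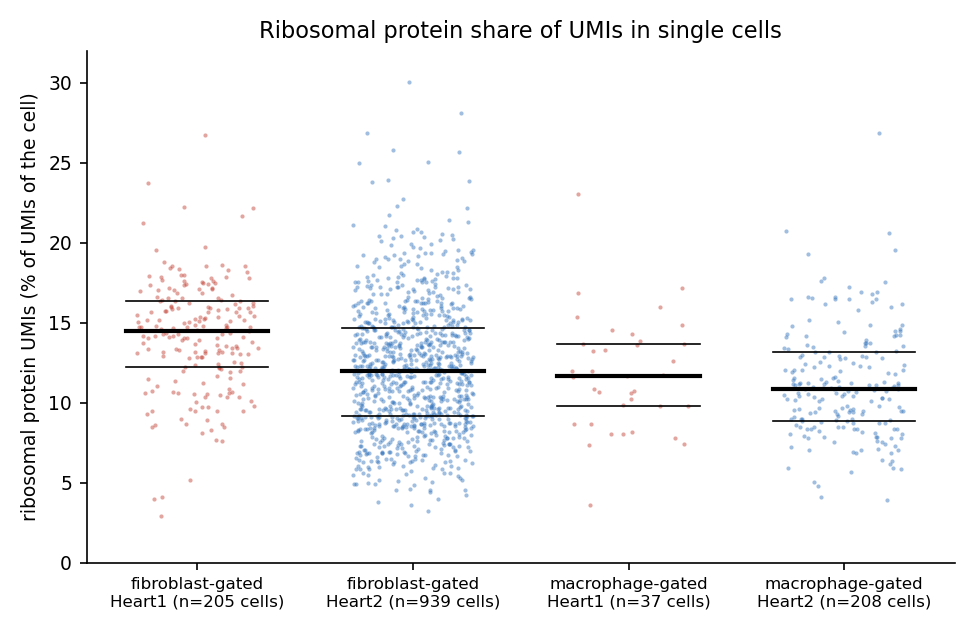
Share of each cell's UMIs (percent, vertical axis) from the 85 ribosomal protein genes, for fibroblast-gated and macrophage-gated cells of libraries Heart1 (red) and Heart2 (blue). Each point is a cell, the thick bar the median and the thin bars the quartiles; medians run from 10.9 to 14.5% while single cells run from 2.94 to 30.1%.

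The subunits shared the pattern. Large subunit genes took 7.95 and 7.06% of UMIs in fibroblast-gated cells of Heart1 and Heart2 and 6.47 and 6.08% in macrophage-gated cells. Small subunit genes took 6.31 and 5.53%, and 5.30 and 5.01%. The ratio of large to small subunit UMIs was 1.26 and 1.28 in fibroblast-gated and 1.22 and 1.21 in macrophage-gated cells. The large subunit counts more genes, so the ratio describes messages and not subunits.

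A Cdkn2a UMI was found in 71 of 205 fibroblast-gated cells of Heart1 and 7 of 939 of Heart2, and in 16 of 37 and 56 of 208 macrophage-gated cells. Because the sort was made on a p16 reporter, the share was also read in cells with and without a Cdkn2a UMI, each cell thinned to 3000 UMIs. The UMI had to remain after thinning. Cells that lost theirs were counted among those without, so that set also holds cells in which Cdkn2a was detected at full depth. In fibroblast-gated cells of Heart1, 36 cells with a Cdkn2a UMI had a share of 14.18% (13.97 to 14.39%) and 169 without had 14.18% (14.09 to 14.28%). In macrophage-gated cells of Heart2, 32 cells with a UMI had 10.80% (10.607 to 11.001%) and 176 without had 11.26% (11.177 to 11.348%). In macrophage-gated cells of Heart1 the values were 11.1% (6 cells) and 11.9% (31 cells). Only 1 fibroblast-gated cell of Heart2 kept a Cdkn2a UMI, with a share of 10.8%. So the thinned fibroblast-gated cells of Heart1 gave overlapping counting intervals. Unthinned, 71 of these cells with a UMI had 14.14% (14.075 to 14.213%) and 134 without had 14.33% (14.277 to 14.382%), and the intervals did not overlap. The summed share of thinned macrophage-gated cells was lower with the UMI in both libraries, resting on 6 cells in Heart1. In Heart2 the median over thinned macrophage-gated cells went the other way, at 11.1% with the UMI and 10.8% without. Unthinned, this median was 10.87% with it and 10.90% without. These are values of cells within a library with no test, and the quartiles over macrophage-gated cells of Heart2 overlapped (8.80 to 12.3% against 8.76 to 13.2%).

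Most ribosomal protein genes leaned towards fibroblast-gated cells by a small amount, and a few genes stood apart from the rest. Values are differences of log2(CPM + 5), fibroblast-gated minus macrophage-gated, on which a fold change of a low gene is understated. They come from limma with the library as a block and Benjamini-Hochberg adjustment over the 8792 genes whose mean reached 10 CPM. The filter kept 83 of the 85, leaving out Rpl3l and Rpl39l. The median of the 83 was 0.24 (0.27 in Heart1 and 0.24 in Heart2), with quartiles at 0.05 and 0.41, beside a median of 0.16 over all genes tested. In both libraries 58 of the 83 were higher in fibroblast-gated cells, 10 were lower, and 15 went opposite ways. Among all genes tested, 48.2% were higher in both libraries and 31.7% lower in both. The 2 fibroblast-gated sums lay above both macrophage-gated sums for 42 of the 83 genes and below both for 4, beside 42.3% and 27.4% of all genes.

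Of the 83, the planned test called 2 higher in fibroblast-gated cells, Rpl22l1 and Rpl4, and 1 lower, Rps29, while 80 did not pass. Among all genes it called 22.6% higher and 15.4% lower (38.0% either way), so calls were rarer among ribosomal protein genes than among all genes. That test gave these genes nearly the same standard error, about 0.25, while other genes could have a larger one, such as Eef1e1 with 0.32. In it 1 residual degree of freedom is joined with 6.86 prior ones taken from genes of every level. The gap between libraries of the class difference had a median of 0.11 over the 83 genes and of 0.37 over all genes tested. A fit that lets the prior spread follow the expression level, chosen after seeing the data, called 30 of the 83 higher and 1 lower, beside 25.8% and 17.1% of all genes (42.8% either way). All 31 had the same direction in both libraries, and 19 of the 30 were of the large subunit (of 49 tested) and 11 of the small (of 34). The count of called genes thus rests on how the spread is pooled.

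Scaling by the median ratio over genes in place of total UMIs lowered the median of the 83 to 0.15 and that of all genes to 0.08. Under it 55 genes were higher and 28 lower, against 67 and 16, and the 12 that changed sign had differences near 0, Rplp1 and Rps24 among them.

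**Figure D2:**
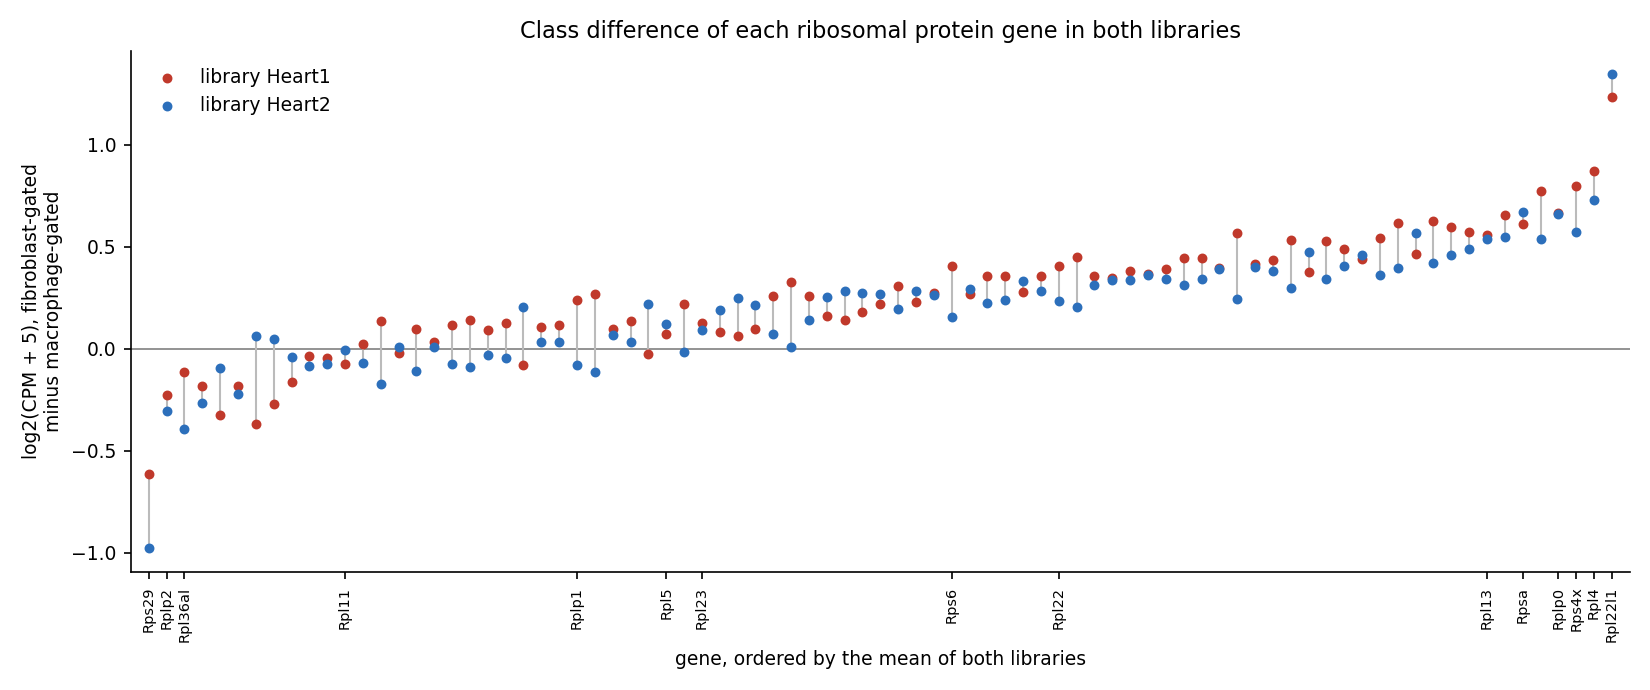
Difference of log2(CPM + 5) between fibroblast-gated and macrophage-gated sums (vertical axis) for the 83 ribosomal protein genes that reached 10 CPM, ordered by their mean with some of the genes described in the text labelled, in library Heart1 (red) and Heart2 (blue). Rpl22l1 lies at 1.23 and 1.34 and Rps29 at -0.61 and -0.98, apart from the rest.

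Rpl22l1 encodes a paralog of the large subunit protein Rpl22. Its gene lies on chromosome 3 (GRCm38, 28805436 to 28807424, ENSMUSG00000039221.10) and that of Rpl22 on chromosome 4 (152325742 to 152334071). Over 365 aligned coding bases, 71.2% were identical and the longest stretch their transcripts share was 26 bases. The starts of both are shown because Rpl22l1 passed the class test and Rpl22 did not. The lines below give the bases from 10 before to 20 after each annotated start (RefSeq, GRCm38.p6, all on the plus strand), with the longest run of C and T among the printed bases in capitals: Rpl22l1 at chr3:28805498-28805527, Rpl22 at the starts chr4:152325716-152325745 and chr4:152324426-152324455, and Rpl4 at chr9:64173377-64173406.
Rpl22l1: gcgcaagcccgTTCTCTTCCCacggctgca
Rpl22 first start: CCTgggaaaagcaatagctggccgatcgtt
Rpl22 further start: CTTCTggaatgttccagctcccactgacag
Rpl4: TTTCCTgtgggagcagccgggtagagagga

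Within the printed bases Rpl22l1 held a run of 10 C or T, and the Rpl22 starts runs of 3 and 5. The run of Rpl4 is cut off at the left edge of its line and counts 14 in the wider window of 40 bases. Promoter entries were found for 65 of the 85 genes. In the 40 bases around the annotated start, a run of at least 8 C or T on the sense strand stood in 30 of those 65 (46.2%), beside 19.8% of the 11365 genes of the table with an entry. A gene with several annotated starts counted once if any of them held the run. Annotated starts can be some bases off, and a run is a description of letters, not a measured TOP tract.

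Fibroblast-gated cells held Rpl22l1 at 732 CPM (Heart1) and 833 CPM (Heart2), and macrophage-gated cells at 308 and 325 CPM. The fibroblast-gated levels were above both macrophage-gated levels, and it was the 1 gene of the 83 at least 2-fold higher in both libraries (14.9% of all genes were). The difference was 1.29 ± 0.25 (SE; limma adjusted p = 0.00404, higher in 2 of 2 libraries). A UMI was found in 98.0 and 96.4% of fibroblast-gated cells and in 78.4 and 84.6% of macrophage-gated cells. Its counterpart Rpl22 was at 1295 and 1166 CPM in fibroblast-gated and 977 and 989 CPM in macrophage-gated cells, a difference of 0.32 ± 0.25 (limma adjusted p = 0.363). The call of Rpl22l1 held in 11 of 12 alternatives with a test (adjusted p 2.56e-06 to 0.0761, thinned cells giving the last).

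Rps29, a small zinc-binding protein of the small subunit, was the gene that went furthest the other way. Its gene lies on chromosome 12 (69157722 to 69159186, ENSMUSG00000034892.8). Its level was 2136 and 2470.2 CPM in fibroblast-gated cells and 3273 and 4874 CPM in macrophage-gated cells. All macrophage-gated levels were above the fibroblast-gated ones, and in macrophage-gated cells of Heart2 it led all 85 genes with 4.40% of their UMIs. The difference was -0.80 ± 0.26 (limma adjusted p = 0.0417), with -0.61 in Heart1 and -0.98 in Heart2. The call held in 8 of 12 alternatives (adjusted p 2.23e-05 to 0.179), and was lost with a pseudocount of 1 CPM, with no filter, in thinned cells and without the library block (limma adjusted p = 0.0791 for the last).

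Rpl4, a large subunit protein with a long extension into the ribosome's core, stood at 785 and 666 CPM in fibroblast-gated and 426 and 399 CPM in macrophage-gated cells. The classes did not overlap. The difference was 0.80 ± 0.25 (limma adjusted p = 0.0366), and the call held in 9 of 12 alternatives (adjusted p 0.000415 to 0.182), being lost with a pseudocount of 1 CPM, median ratio scaling or thinning. The gene lies on chromosome 9 (64173375 to 64178666).

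The next genes in order did not pass the planned test but passed the fit with a trend. Rps4x, the X-linked small subunit gene, was at 3242 and 3061 CPM in fibroblast-gated and 1861 and 2060 CPM in macrophage-gated cells, a difference of 0.68 (limma adjusted p = 0.0663, and 0.000115 with the trend). Rplp0, the base of the stalk, differed by 0.66 (0.0702 and 0.000166), Rpl36a by 0.66 (0.0765 and 0.00142) and Rpsa, also known as the laminin receptor, by 0.64 (0.0787 and 0.000268). Rps2, which lines the entry of the message channel, differed by 0.60. Rpl13, Rpl12 and Rpl15 of the large subunit differed by 0.55, 0.53 and 0.53. For each of these 8 genes both fibroblast-gated sums were above both macrophage-gated sums, as for 42.3% of all genes. The 8 were taken for their large differences in the same sums, so this says little about them.

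The stalk of the large subunit, which recruits elongation factors, is built of Rplp0 with Rplp1 and Rplp2, and its messages did not share a level pattern. Rplp0 stood at 3047 and 2374 CPM in fibroblast-gated and 1919 and 1499 CPM in macrophage-gated cells. Rplp2 stood at 1160 and 900 CPM in fibroblast-gated cells and at 1360 and 1115 CPM in macrophage-gated cells, lower in fibroblast-gated cells within each library (-0.27 ± 0.25, limma adjusted p = 0.446). Rplp1 stood at 3955 and 2792 CPM against 3357 and 2953 CPM, which overlapped, with a difference of 0.08 ± 0.26 (limma adjusted p = 0.847).

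Among other genes at the low end of the order were Rpl36al (-0.26), Rpl7l1 (-0.21), Rps14 (-0.20), Rps27rt (-0.15), Rps15 (-0.11), Rps27l (-0.10) and Rps25 (-0.06). None of these passed under either fit. Rps15 and Rps27rt had opposite signs in the libraries, so their order here is not settled.

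Rpl5, Rpl11 and Rpl23, which can bind Mdm2, did not pass the class test in either fit. Rpl5 stood at 507 and 381 CPM in fibroblast-gated cells and 481 and 351 CPM in macrophage-gated cells (0.10 ± 0.25, limma adjusted p = 0.802). Rpl11 stood at 1690.2 and 1463 CPM against 1781 and 1469 CPM (-0.04 ± 0.25, limma adjusted p = 0.921). Rpl23 stood at 3255 and 2807 CPM against 2979 and 2632 CPM (0.11 ± 0.25, limma adjusted p = 0.769). For these 3 genes the library gap was wider than the class gap. Rps7 and Rps20, also reported to bind Mdm2, lay at 0.37 and 0.52 (limma adjusted p = 0.294 and 0.143, and 0.0299 and 0.00148 with the trend). They were named after their values were seen. Further members reported to bind Mdm2 were not gone through, so these values do not describe such members as a set. Rps6, the small subunit protein phosphorylated by the S6 kinases, differed by 0.28 ± 0.25 (limma adjusted p = 0.436), and Rps27a, made as a fusion with ubiquitin, by 0.20 ± 0.25 (limma adjusted p = 0.575).

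Levels of the standard genes varied over a wide range. 3' chemistry counts a message once whatever its length, so levels are in CPM and are not divided by length. The highest mean levels over the 4 sums were those of Rplp1 (3264 CPM), Rps24 (3229), Rps29 (3188), Rpl13 (3123) and Rpl23 (2918). The number of genes at 1000 CPM or more was 63 and 60 in fibroblast-gated cells of Heart1 and Heart2 and 57 and 55 in macrophage-gated cells. The leading 10 genes held 22.0 to 24.4% of the family's UMIs, so no gene dominated the share. Among standard genes Rpl13a was lowest at 105 CPM, chosen after its value was seen, with 130, 107, 101 and 83.3 CPM in the 4 sums. Near-identical copies elsewhere in the genome can share reads with such genes, so their levels are uncertain. The 7 "-ps" rows took 0.0095 to 0.0123% of UMIs.

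The paralogs formed a lower tier than their counterparts. Rps27l, a p53-induced paralog of Rps27, stood at 396 and 343 CPM in fibroblast-gated and 444 and 353 CPM in macrophage-gated cells, where Rps27 stood at 1932 and 2284 CPM and at 1562 and 1999 CPM. Their coding bases were 76.2% identical and the longest shared stretch of their transcripts was 11 bases. Rps27rt, a copy on chromosome 9, was 100% identical to Rps27 over 252 coding bases with a shared stretch of 341 bases, so UMIs of the 2 cannot be told apart with certainty. It was at 54.6 to 72.0 CPM. Rpl36al stood at 223 to 295 CPM beside 634 to 1085 CPM of Rpl36a (87.7% identical), and Rpl7l1, which acts in ribosome assembly, at 61.0 to 77.8 CPM. Rps19bp1, a regulator of the deacetylase Sirt1 and not a ribosomal protein, stood at 31.7 to 42.0 CPM.

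The remaining variants were near the detection limit. Rpl39l, known from testis, had 5 and 17 UMIs in fibroblast-gated and 0 and 3 in macrophage-gated cells. Rpl3l, the form of Rpl3 used in heart and skeletal muscle fibres, had 2 and 3 UMIs in fibroblast-gated cells, and 0 (Heart1) and 15 (Heart2) in macrophage-gated cells, the last at 7.31 CPM (4.09 to 12.1, exact Poisson interval). The 0 in Heart1 allows up to 8.64 CPM (3 UMIs), which is above the level in Heart2, so a difference between the libraries was not detectable at this depth. In Heart2, 13 of 208 macrophage-gated cells (3.37 to 10.5%) and 3 of 939 fibroblast-gated cells (0.0659 to 0.931%) had a Rpl3l UMI. Cardiomyocyte markers stood at 58.6 CPM (9 UMIs) in those 13 cells and at 91.6 CPM in the macrophage-gated cells without. Their part in the Rpl3l UMIs was not tested beyond these values.

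**Figure D3:**
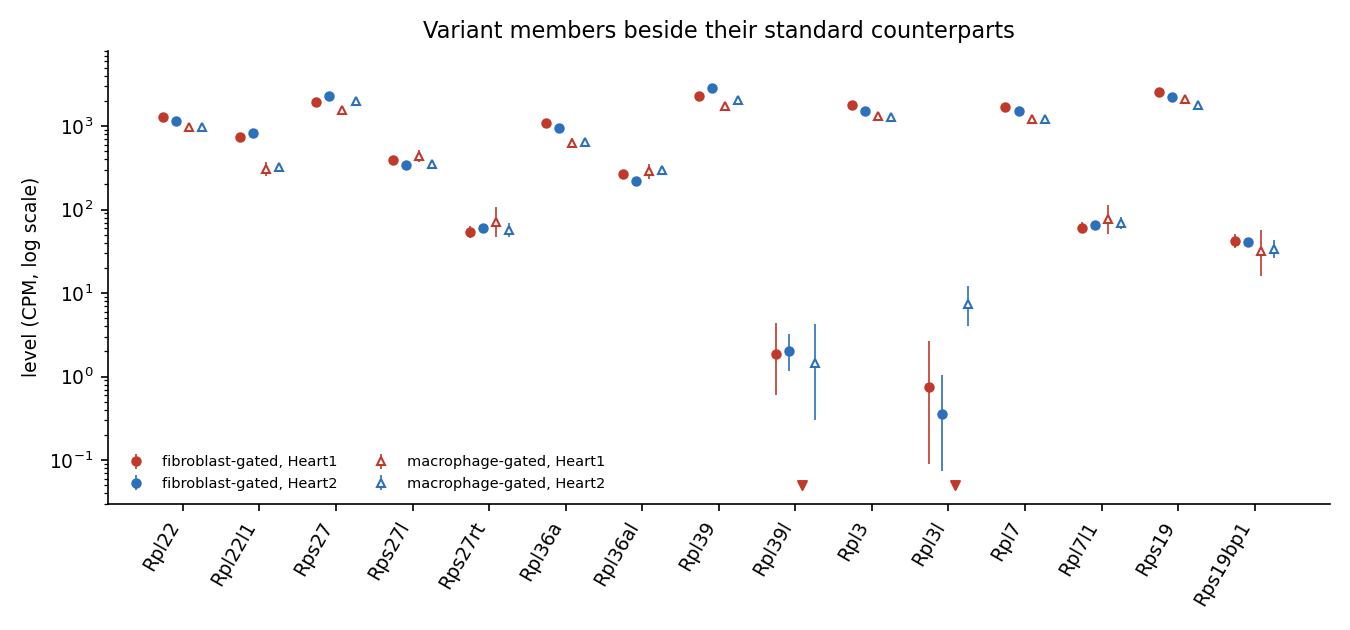
Level (CPM, log scale) of the 8 variant members beside their standard counterparts in fibroblast-gated (circles) and macrophage-gated (triangles) cells of Heart1 (red) and Heart2 (blue). Bars are exact Poisson 95% intervals, filled downward triangles mark a level of 0, and Rpl22l1 is the variant whose classes lie furthest apart among those above 10 CPM.

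Between libraries, ribosomal protein genes were higher in Heart1 as a family, while most genes of the shortest proteins were lower there. In fibroblast-gated cells 69 of 83 genes were higher in Heart1 (beside 37.6% of 9026 genes), with a median difference of 0.21 against -0.11 over all genes. In macrophage-gated cells 62 of 83 were higher (beside 48.1% of 8355 genes), with 0.13 against -0.02. Each side is a single library, so these differences have no test. At the size of 1.5-fold, 1 gene was higher and 0 lower in Heart1 in fibroblast-gated cells (5.81% and 8.64% of all genes), and 2 were higher and 0 lower in macrophage-gated cells (13.2% and 15.5%). At 2-fold none of the 83 was called in either class (2.83% and 1.62% of all genes, and 4.43% and 5.72%). Without the 1 macrophage-gated cell of Heart1 predicted to be a doublet, 56 of the 83 were higher in Heart1. Over 8 alternatives in each class the number was 69 to 74 in fibroblast-gated and 56 to 62 in macrophage-gated cells.

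The gene past 1.5-fold in fibroblast-gated cells was Rps6, at 1000.3 CPM in Heart1 and 643 CPM in Heart2, a difference of 0.63 (0.57 to 0.70, exact counting interval of the log2 ratio). In macrophage-gated cells it was at 755 and 578 CPM (0.38, 0.19 to 0.58). The genes past 1.5-fold in macrophage-gated cells were Rps15, at 519 and 301 CPM (0.77, 0.54 to 1.03), and Rpl17, at 945 and 588 CPM (0.68, 0.50 to 0.86). In fibroblast-gated cells Rps15 was at 428 and 311 CPM (0.46) and Rpl17 at 927 and 685 CPM (0.43). Rpl28 (0.53), Rpl5 (0.45) and Rpl23a (0.39) followed in macrophage-gated cells, and Rplp1 (0.50), Rps14 (0.42) and Rpl26 (0.42) in fibroblast-gated cells. Heart1 was the higher library for each of these genes in the class named.

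At the other end stood Rpl39, Rps28, Rpl38, Rps27 and Rps29, which were among the 6 lowest genes in both classes. Rpl38, a large subunit protein, was at 1165 CPM in Heart1 and 1381 CPM in Heart2 in fibroblast-gated cells (-0.24, -0.30 to -0.19), and at 1060.2 and 1558 CPM in macrophage-gated cells (-0.55, -0.71 to -0.40). Rps28 was at 1343 and 1645 CPM (-0.29) and at 1248 and 1606 CPM (-0.36). Rps29 differed by -0.21 and -0.57, Rpl39 by -0.33 and -0.23, and Rps27 by -0.24 and -0.36. The sixth was Rpl35 in fibroblast-gated cells, at 814 and 1111 CPM (-0.45), and Rpl37a in macrophage-gated cells (-0.22). Heart2 was the higher library for each of these genes.

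Most of these low genes have short coding sequences, a feature that did not choose them. Of the 77 standard genes, 9 have at most 300 coding bases in GENCODE: Rpl41, Rpl39, Rps29, Rps28, Rpl38, Rps21, Rps27, Rpl37a and Rpl37. The length of 300 bases was set after the values were seen, so no test is given. Of the 9, 7 were lower in Heart1 in fibroblast-gated cells (median -0.21) and 8 in macrophage-gated cells (median -0.23). These counts go by sign alone. Rps21 is among the 8 at -0.009 (-0.14 to 0.12, exact counting interval), an interval that includes 0. Of the 68 longer genes, 4 and 10 were lower (medians 0.22 and 0.16). In fibroblast-gated cells the pattern of the short genes was weaker under other settings: 5 of 9 were lower with median ratio scaling (median -0.10) and 6 of 9 with cells thinned to 3000 UMIs (median -0.12). In macrophage-gated cells 8 of 9 were lower under each of these, and Rps29, Rpl38, Rps28, Rps27 and Rpl39 stayed below 0 in both classes under all 8 alternatives run. The shortest, Rpl41, with 75 coding bases, did not follow, at 0.23 and 0.03, the second turning to -0.03 without the predicted doublet and to -0.02 when thinned. Across the 77 genes the library difference went with log2 coding length with Pearson's r of 0.41 (Spearman's rho 0.24) in fibroblast-gated and 0.39 (0.33) in macrophage-gated cells, as a description over genes that share libraries and are not replicates.

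Among other genes of the table the correlation was near 0 or of the opposite sign. Over 8784 other genes in fibroblast-gated cells r was -0.14, and over 8107 in macrophage-gated cells 0.022. Of 206 other genes with at most 300 coding bases, 59.2% were higher in Heart1 in fibroblast-gated cells (median 0.06), and of 209 in macrophage-gated cells 45.9% were (median -0.07). The class difference of the standard genes went with coding length too (r = 0.46, rho = 0.43 over 77 genes, against 0.043 and -0.019 over 8562 others). Depth, mitochondrial share, cell numbers and the fraction of cells with a Cdkn2a UMI differed between the libraries as given above. Their part in the differences of the ribosomal protein genes was not tested.

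The letters around the start of 2 of the short genes with a RefSeq entry are given because these genes, both lower in Heart1, were not alike there. The windows are those described for Rpl22l1: Rpl38 at chr11:114668570-114668599 on the plus strand, with a run of 10, and Rps28 at chr17:33824543-33824572 on the minus strand, with a run of 4.
Rpl38: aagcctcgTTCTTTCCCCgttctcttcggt
Rps28: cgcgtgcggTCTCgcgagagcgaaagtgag

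**Figure D4:**
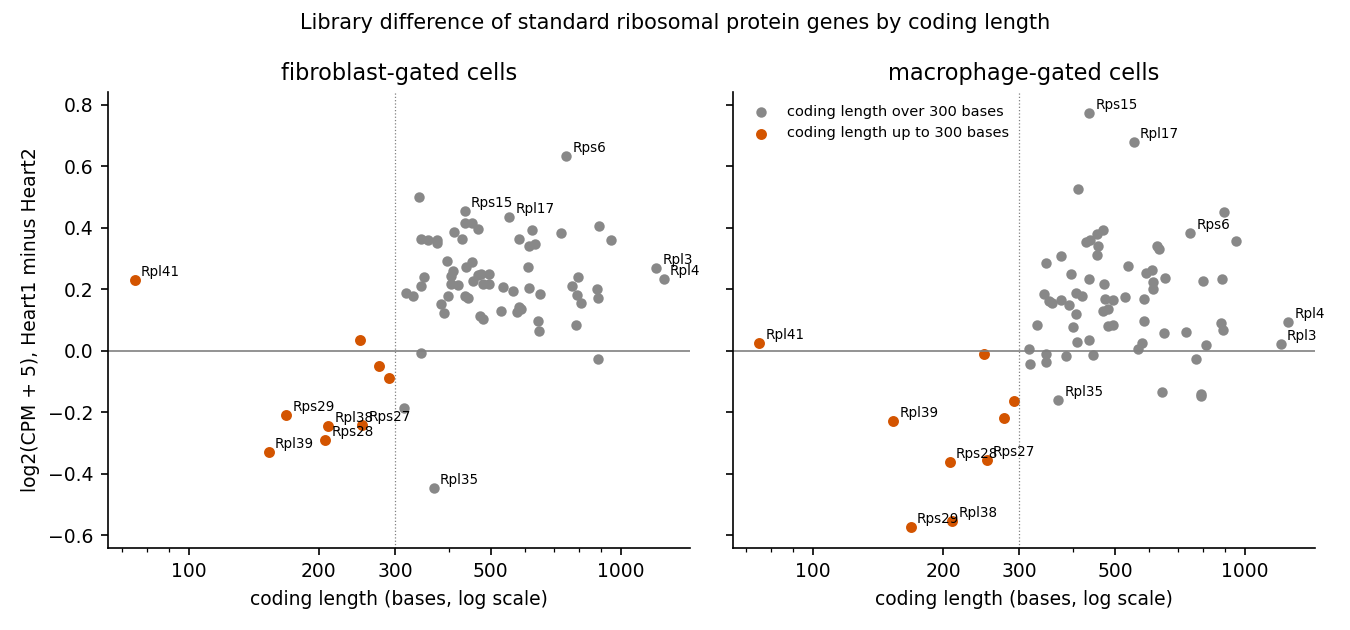
Difference of log2(CPM + 5) between Heart1 and Heart2 (vertical axis) against coding length (bases, log scale) for the 77 standard ribosomal protein genes in fibroblast-gated and macrophage-gated cells, each point a gene. Orange points are the 9 genes with at most 300 coding bases, of which 7 and 8 lie below 0, Rpl41 being above 0 in both panels (0.03 in macrophage-gated cells, and -0.03 without the predicted doublet). Among the 8, Rps21 lies at -0.009.

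From cell to cell, ribosomal protein messages varied more than counting alone gives, and mostly together. The dispersion index (observed squared deviations over those expected from each cell's depth, 1 for counting alone) had a median of 2.62 and 2.58 over the genes with at least 1 UMI per cell in fibroblast-gated cells of Heart1 and Heart2, and of 2.59 and 2.42 in macrophage-gated cells. Other genes of at least 1 UMI per cell had medians of 1.27, 1.21, 1.47 and 1.28. The index grows with the level, and these genes are at higher levels than most others. When the expectation was taken from each cell's summed ribosomal protein UMIs, the medians fell to 1.32, 1.18, 1.66 and 1.24. Rps4x was among the 5 highest in all 4 sets (6.49, 6.07, 5.46 and 4.09). Rplp1 led in fibroblast-gated cells of Heart1 (6.58), Rpl32 in macrophage-gated cells of Heart1 (5.89) and Rps29 in those of Heart2 (4.24). With the expectation from the summed ribosomal protein UMIs these became 3.65, 2.58 and 3.92, so Rps29 there varied largely apart from the sum. On that expectation Rps29 stood at 3.15 in macrophage-gated cells of Heart1. In fibroblast-gated cells of Heart1 and Heart2 it stood at 1.25 and 1.19.

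Genes of related function were read in the same limma fit. Among all genes the planned test called 22.6% higher in fibroblast-gated cells and 15.4% lower (25.8% and 17.1% with the trend). Fau, which yields the small subunit protein Rps30, stood at 2146 and 1836 CPM in fibroblast-gated and 3264 and 2989 CPM in macrophage-gated cells (-0.65 ± 0.25, limma adjusted p = 0.0744, and 0.00015 with the trend). Rack1, the scaffold protein of the small subunit, differed by 0.00 ± 0.25 (limma adjusted p = 0.999). Neither passed the planned test, and Fau passed with the trend.

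Of 7 elongation factor genes, 1 was called higher in fibroblast-gated cells and 0 lower (4 and 0 with the trend), with a median of 0.47. Eef1d, an exchange factor, differed by 0.76 ± 0.25 (limma adjusted p = 0.0449). Eef1a1, which brings transfer RNA to the ribosome, stood at 5063 and 4627 CPM against 3613 and 3320.5 CPM (0.48, adjusted p = 0.171, and 0.000982 with the trend). Of 15 genes with TOP messages outside the family, 1 was called higher and 0 lower (8 and 1 with the trend). This list shares genes with the elongation factors, such as Eef1a1, and with the initiation factors, such as Eif4a2, so the counts are not separate. Eif4a2, an RNA helicase, led with 1.20 ± 0.25 (limma adjusted p = 0.00575), while Pabpc1, which binds poly(A) tails, differed by -0.60 (0.0965, and 0.0143 with the trend).

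Mitochondrial ribosomal protein genes, whose products translate mitochondrial messages, gave 2 of 74 higher and 0 lower (5 and 0 with the trend), with Mrps6 at 1.08 ± 0.25 (limma adjusted p = 0.00983) and a median of 0.10. Initiation factor genes gave 2 of 51 higher, Eif4a2 again among them, and 0 lower (3 and 0). Of 24 ribosome biogenesis genes, 0 passed in either direction in either limma fit, also at an unadjusted p under 0.05 (0 genes), with a median of 0.14. Of 11 genes that control ribosomal protein messages 0 passed (1 at an unadjusted p under 0.05), while with the trend 1 was higher and 0 lower, Rps6kb1 at 0.70.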

How the data were processed

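The deposited table holds natural log values made by the authors: each cell's UMIs were scaled to 10000, 1 was added and the log taken, as read from the values. Cell Ranger 3.0.2 and mm10 are named in the submitters' processing notes, and the sources used here do not give the normalization tool or cell filters. All 4459440 values above 0 were whole multiples of their cell's lowest value within 1e-06, and UMIs were recovered so. No column was left unused. UMIs were summed per library and class and tested on log2(CPM + 5) with limma 3.58.1 (R 4.3.3), library as block, Benjamini-Hochberg adjustment, over genes whose mean reached 10 CPM. The block pairs classes from the same library. Doublets were predicted with scrublet (scanpy 1.11.5) and kept. Thinning drew 3000 UMIs per cell. Gene positions and coding lengths are GENCODE M21 (GRCm38). The members, lists and tests were chosen with earlier results of these data known. The text names the 10 largest class differences each way, the 6 largest library differences each way, the 5 highest and lowest levels, the 5 most dispersed, variants, and a few genes by function. Some items that this rule names are not reported here. Alternatives were other pseudocounts, filters, scalings, gates, thinning, no block, no doublets, single libraries and, added later, a mean-variance trend.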

Additional observations from a re-analysis of the deposited data

Results flagged for a closer look

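Some genes had library or class differences of opposite sign whose exact counting intervals both excluded 0, and the difference between the differences was not tested, since each value is a single library. The counting intervals cover UMIs only. In Heart1 minus Heart2, Rps4x was 0.083 in fibroblast-gated cells and -0.15 in macrophage-gated cells, and Rps3a1 was 0.18 and -0.14. In fibroblast-gated minus macrophage-gated cells, Rpl10 was 0.14 in Heart1 and -0.09 in Heart2, Rps9 was 0.12 and -0.08, Rplp1 was 0.24 and -0.08, and Rpl26 was 0.27 and -0.11. All of these values are small beside the 1.5-fold size used for library differences.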

How the results depend on the processing

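The limma count of genes higher in fibroblast-gated cells was 2, and it was 1 with a pseudocount of 1 CPM, 11 with 20 CPM, 6 with a mean of 50 CPM or more, 1 with median ratio scaling, 0 with cells thinned to 3000 UMIs and 30 with the mean-variance trend. At an unadjusted p under 0.05, in either direction, limma passed 8 of the 83 as planned, 1 thinned, 3 with a pseudocount of 1 CPM, 3 with median ratio scaling, 9 without a filter and 8 without the replicate block. It passed 20 with a pseudocount of 20 CPM, 36 with the mean-variance trend and 14 of the 82 genes whose mean reached 50 CPM. The count of genes lower was 1, and 0 with a pseudocount of 1 CPM, without a filter, without the replicate block and thinned. Without the replicate block the number higher was 2. The cause of these changes was not tested, except that thinning leaves fewer UMIs. The median of the class difference was 0.24, 0.15 with median ratio scaling, and 0.24 to 0.27 with a single library. No called gene changed direction under any alternative run.

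The UMI share moved beyond its counting interval in these cases. In fibroblast-gated cells of Heart1 it was 14.3% with a gate of at least 3 own and at most 1 other marker, 14.2% thinned, 14.2% as the mean over cells and 14.8% of non-mitochondrial UMIs. In those of Heart2 it was 12.7% with a gate of at least 5 own and at most 3 other markers, 12.2% thinned, 12.2% as the mean over cells and 13.3% of non-mitochondrial UMIs. In macrophage-gated cells of Heart1 it was 11.6% without the predicted doublet and 12.3% of non-mitochondrial UMIs, and in those of Heart2 11.2% thinned, 11.2% as the mean over cells and 11.7% of non-mitochondrial UMIs. Genes past 1.5-fold higher in Heart1 numbered 2 in fibroblast-gated cells thinned or with median ratio scaling, and 1 in thinned macrophage-gated cells, where 2 were lower. Unthinned, the share was 14.3% and 12.6% in fibroblast-gated cells of Heart1 and Heart2 without a Cdkn2a UMI, 9.66% in 7 such cells of Heart2 with it, and 12.5% in macrophage-gated cells of Heart1 without it. The median dispersion index given the summed family was 1.32 and 1.18 in fibroblast-gated and 1.66 and 1.24 in macrophage-gated cells. Depth limits Rpl3l and Rpl39l, and the 37 macrophage-gated cells of Heart1 limit every value of that set.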

Other observations

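The ungated cells had a summed ribosomal protein share of 20.7% in Heart1 (24 cells, median over cells 27.9%) and 16.1% in Heart2 (13 cells, median 12.9%), and high shares were not limited to the sets described here. In Heart1, 9 ungated cells had a UMI of at least 2 of the T cell markers Cd3e, Cd3d, Cd3g, Trbc2 and Lck, and their share of ribosomal protein UMIs had a median of 33.1% (19.3 to 38.0%), with a median depth of 5726 UMIs and 1 predicted doublet. Cells with at least 2 of the endothelial markers Cldn5, Cdh5, Pecam1, Kdr and Egfl7 had medians of 15.3% in Heart1 (6 cells) and 12.9% in Heart2 (9 cells). A cell can count in more than a single set, and the minimum of 2 markers was set after the data were seen. With so few cells, and 1 T cell-marked cell in Heart2, no comparison between libraries was made.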
